A study of Mus musculus with 48 samples.

Results

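The genes of glycolysis, lactate handling and the tricarboxylic acid (TCA) cycle were followed here through the first week after permanent middle cerebral artery occlusion (MCAO) in the mouse brain. The 41 genes were taken from a named list of glucose transporter, glycolytic, lactate dehydrogenase, monocarboxylate transporter, pyruvate-handling, TCA cycle and glycogen phosphorylase genes, and each of them matched 1 of the 46983 gene identifiers in the count tables. All 41 passed the filter on low counts and were among the 19970 genes tested, although Pgk1 did so with only 317 counts summed over 48 libraries.

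The samples were bulk RNA from 3-month-old male C57Black/6 mice, sequenced from the 3' end of polyadenylated RNA so that each transcript gives about 1 read position. In the MCAO groups the artery was coagulated and cut, a permanent occlusion that leaves small lesions in the parietal cortex, and tissue was taken 3 h, 12 h, 24 h, 3 days or 7 days later with 5 libraries per time (4 at 24 h). Each time had a sham group of 4 libraries from mice that underwent the same surgery without coagulation, and 4 libraries came from intact cortex (control). The paper's methods name the bulk tissue as the injured cortical region, and its main text as almost the whole hemisphere on the injured side. The piece of tissue held injured and uninjured brain together, so a lower value in these bulk samples cannot be told apart as fewer cells of a type or less RNA per cell. The paper's main text counts the bulk replicates as mice. On that count p-values measure the spread between mice as well as between library preparations.

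Gene counts per library ran from 1522668 to 2826735 (median 1935856). Values are given as CPM, a gene's count scaled as usual to a fixed total. The library sizes used for CPM were first multiplied by edgeR's TMM factors (0.923 to 1.05), so CPM is not the plain share of gene counts. The 11 neuronal, 9 astrocytic and 8 oligodendrocytic marker genes were detected in every group, with none of them at 0. Summed striatal markers ran from 472 to 1643 CPM within the 4 sham libraries of day 7 alone, and from 621 to 1738 CPM in control. Their median was lower after MCAO at 12 h (491 against 1693 CPM in sham) and higher at 24 h (1188 against 828 CPM), with overlapping groups. The part of dissection in these differences was not tested. Of the marker lists, microglial (6 of 8 genes called higher at day 3 and 4 of 8 at day 7), peripheral myeloid (4 of 6 at day 3), fibroblast (3 of 5 and 4 of 5) and erythroid markers (3 of 5 and 4 of 5) rose after MCAO. Their sums first separated from sham earlier than that: erythroid at 3 h (179.9 to 627 against 10.4 to 97.3 CPM), fibroblast at 12 h (66.5 to 153 against 44.8 to 57.6 CPM), and microglial (566 to 751 against 346 to 454 CPM) and peripheral myeloid at 24 h (12.2 to 47.7 against 1.57 to 5.33 CPM). Erythroid sums overlapped sham again at 12 h, 24 h and day 7, and fibroblast and peripheral myeloid sums at day 3. Granulocyte sums lay above every sham of the same time throughout (5.77 to 28.0 against 0.912 to 4.58 CPM at day 7). Of the 7 granulocyte genes, 2 were called higher at 12 h and 2 at day 3.

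Glycolysis splits glucose into pyruvate in the cytosol and yields a little ATP without oxygen. Hexokinase traps glucose as its phosphate, lactate dehydrogenase turns pyruvate into lactate or back, monocarboxylate transporters carry lactate across membranes, and pyruvate dehydrogenase feeds the carbon into the mitochondrial TCA cycle. In the brain, astrocytes are known for glycogen storage and lactate release and neurons for oxidative use, and many glycolytic genes are known targets of the hypoxia-inducible factors.

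Across the 41 genes, transcripts of 1 hexokinase and 2 lactate transporters rose with occlusion while most enzymes of glycolysis and the TCA cycle showed no change past the threshold. A gene was called when edgeR's quasi-likelihood test gave a Benjamini-Hochberg adjusted p under 0.01 over all genes tested and the log2 fold change exceeded 0.58 in size. Standard errors (SE) are those of the log2 fold change. Against the sham of the same time, 0 of 41 genes were called at 3 h (0.11% of all genes were), 1 at 12 h (0.411% of all genes), 0 at 24 h (0.0901% of all genes), 2 at day 3 (4.02% of all genes) and 4 at day 7 (3.5% of all genes). At 3 h and 24 h the same fit gave 3 and 9 of the 41 genes at an unadjusted p under 0.05, and DESeq2 called 0 at both times. No share of all genes was taken at that unadjusted limit. Counts at it, here and below, are not a result about the 41 genes. At day 7, 1 gene was called higher (2.07% of all genes) and 3 lower (1.43%). Hk2 was called higher at 12 h, day 3 and day 7 and Slc16a3 at day 3, while Hk1, Eno2 and Ldhb were called lower at day 7.

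The median log2 fold change of the 41 genes against sham was 0.07, -0.02, 0.09, -0.15 and -0.15 at 3 h, 12 h, 24 h, day 3 and day 7, beside 0.00, 0.01, 0.02, 0.01 and 0.06 over all genes tested. Loosening the threshold to an adjusted p under 0.05 with no limit on the fold gave 0, 4, 0, 4 and 5 of the 41 genes at the 5 times, against 0.28%, 1.39%, 0.23%, 8.23% and 9.24% of all genes. With counts this small no more is read from them than which genes moved.

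In 2, 2, 3, 1 and 1 of the 41 genes all MCAO libraries lay above all sham libraries at the 5 times (2.26%, 2.03%, 3.76%, 4.33% and 5.38% of all genes), and in 0, 1, 2, 1 and 5 all lay below (1.31%, 1.26%, 2.08%, 2.81% and 5.11%). The 5 genes below sham at day 7 included Hk1, Eno2, Ldhb and Pgam1.

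**Figure D1:**
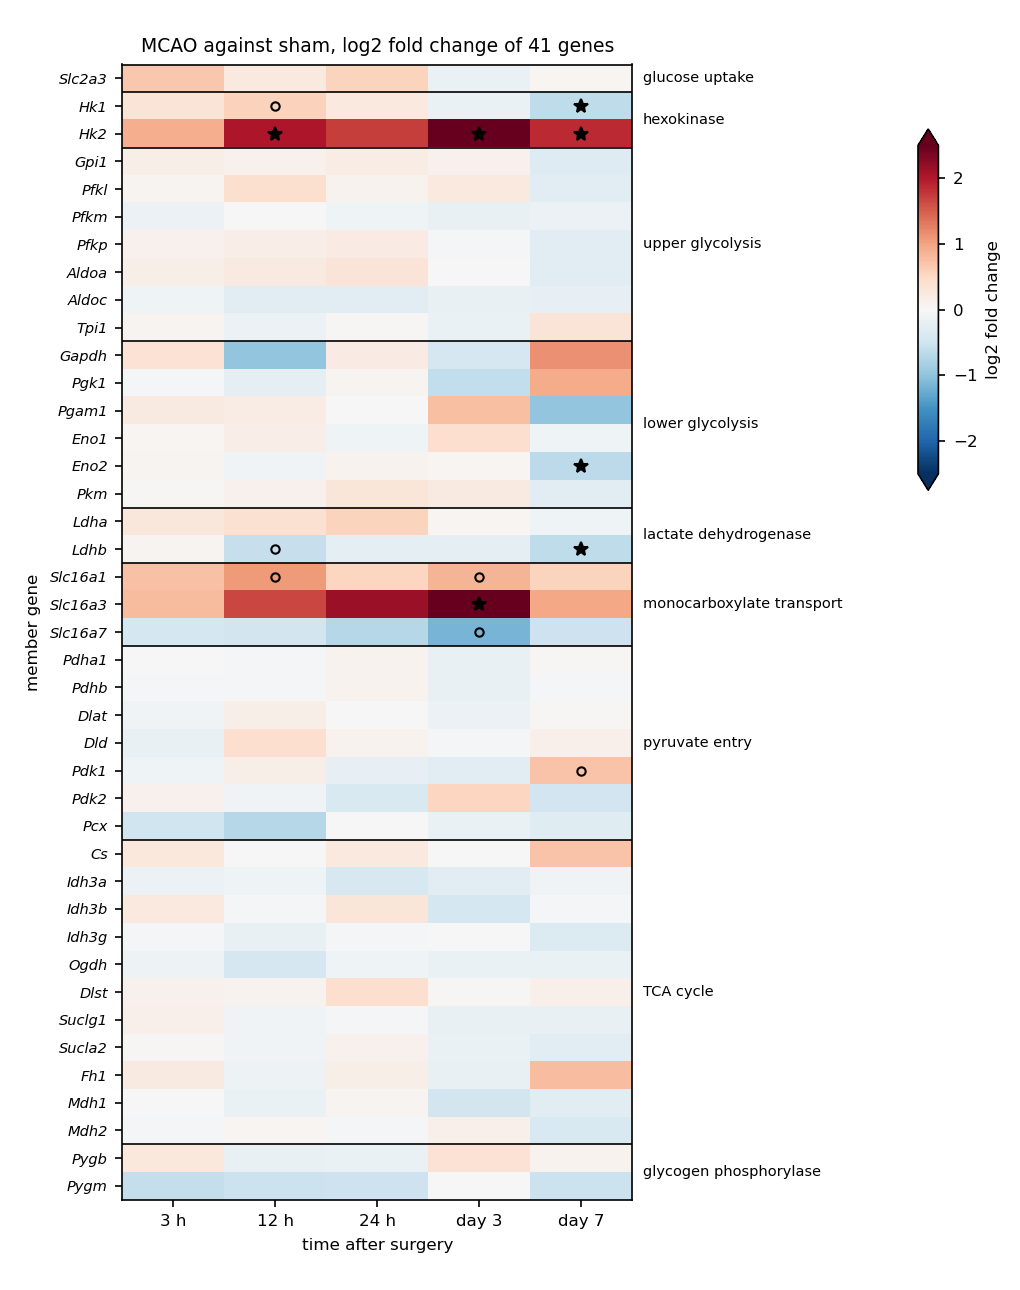
Log2 fold change of each of the 41 genes (rows, grouped by step) in MCAO against the sham of the same time (columns), from edgeR; red is higher and blue lower in MCAO, and colours stop at 2.5 in either direction. Stars mark the genes called and rings those with an adjusted p under 0.05 only; Hk2 and Slc16a3 are red at all 5 times, and no star stands among pyruvate entry and the TCA cycle.

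Averaging the 5 times, a comparison added after the data were seen, gave the sharpest estimates. With the mean of the 5 MCAO groups set against the mean of the 5 sham groups, 4 of 41 genes were called (4.89% of all genes were): Hk2, Slc16a3 and Slc16a1 were higher (4.51% of all genes) and Slc16a7 was lower (0.381%). The 95% interval of the log2 fold change lay inside 0.58 in either direction for 34 of the 41 genes. At an adjusted p under 0.05, 10 of 41 passed (14.3% of all genes), the other six being Ldha, which was higher, and Ldhb, Aldoc, Idh3a, Ogdh and Pygm, which were lower. Hk2, Slc16a1, Slc16a3 and Dlst had a positive log2 fold change at each of the 5 times, and Pfkm, Aldoc, Slc16a7, Idh3a, Idh3g, Ogdh and Pygm a negative one.

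The 3 genes called higher in that comparison are shown with the sequence around their transcription start, because hypoxia-inducible factors are known to bind a short core found in many promoters. The windows reach from 250 bases before to 50 bases after the start and are taken from RefSeq on GRCm38.p6, and capitals mark ACGTG or GCGTG read on either strand (CACGT or CACGC where the match is on the other strand).
Hk2 promoter (chr6:82774405-82774704, minus strand): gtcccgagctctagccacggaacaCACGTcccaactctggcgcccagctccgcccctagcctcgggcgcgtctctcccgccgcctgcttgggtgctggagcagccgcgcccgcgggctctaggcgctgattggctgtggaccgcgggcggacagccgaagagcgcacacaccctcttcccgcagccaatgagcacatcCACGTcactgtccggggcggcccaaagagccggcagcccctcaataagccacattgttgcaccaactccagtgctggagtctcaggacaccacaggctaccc
Slc16a3 promoter (chr11:120948817-120949116, plus strand): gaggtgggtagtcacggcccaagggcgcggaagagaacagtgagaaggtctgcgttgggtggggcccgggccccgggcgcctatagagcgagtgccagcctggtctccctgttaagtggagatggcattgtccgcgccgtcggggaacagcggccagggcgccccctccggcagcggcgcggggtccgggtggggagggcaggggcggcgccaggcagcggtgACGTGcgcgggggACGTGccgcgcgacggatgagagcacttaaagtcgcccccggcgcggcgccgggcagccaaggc
Slc16a1 promoter (chr3:104638414-104638713, plus strand): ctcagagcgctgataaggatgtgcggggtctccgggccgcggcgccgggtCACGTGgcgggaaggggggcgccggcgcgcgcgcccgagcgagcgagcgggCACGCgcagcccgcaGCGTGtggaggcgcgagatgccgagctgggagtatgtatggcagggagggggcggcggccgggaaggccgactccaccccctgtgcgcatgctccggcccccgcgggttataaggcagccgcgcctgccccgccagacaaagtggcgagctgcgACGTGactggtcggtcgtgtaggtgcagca
These windows held 2, 2 and 5 matches. In the Slc16a1 window the first capitals, CACGTG, hold a match on each strand, and overlapping matches of this kind were counted on both. Of the 41 genes, 38 had at least 1 RefSeq promoter and 29 had a match in one, and 41 of their 57 promoters (71.9%) held a match against 43.8% of the 32851 mouse promoters in the table. Among genes described below, the first Ldha promoter held 7 matches, the Eno2 promoter 0 and the Ldhb promoter 1. The first Hk1 promoter held 0 and the second 5. These letters describe the windows only.

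Of the 2 hexokinase isoforms, Hk2 was higher after occlusion at all 5 times, and Hk1 was higher in the mean up to 24 h and lower from day 3. Hk2, the inducible isoform that binds mitochondria, was low without occlusion, at 2.62 to 10.1 CPM over the 24 control and sham libraries. At 3 h the 5 MCAO libraries (10.8, 8.03, 10.5, 12.9 and 8.66 CPM) all exceeded the 4 shams (5.14, 6.33, 5.38 and 4.91 CPM), but the difference (log2 fold change 0.90) missed the threshold (SE 0.46, adjusted p = 0.598). At 12 h the MCAO libraries read 17.8, 12.1, 18.8, 25.3 and 42.3 CPM and the shams 8.93, 3.13, 4.80 and 5.84 CPM, which gave 2.02 on the log2 scale (SE 0.44, adjusted p = 0.00845). The groups did not overlap, and every MCAO library at 12 h exceeded every library without occlusion. The call rested on the full set of libraries, since leaving out any 1 of 7 of the 9 raised the adjusted p above 0.01, to at most 0.0537, with the log2 fold change between 1.70 and 2.28.

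At 24 h Hk2 stood at 18.7, 15.4, 15.3 and 22.0 CPM after MCAO and at 4.15, 10.1, 4.88 and 2.62 CPM in sham, a separated pair of groups whose log2 fold change of 1.72 missed the threshold (SE 0.48, adjusted p = 0.127). At day 3 it was highest and most uneven, with 7.47, 27.1, 75.4, 49.8 and 75.3 CPM after MCAO and 5.44, 7.85, 7.01 and 8.90 CPM in sham. The log2 fold change was 2.69 (SE 0.42, adjusted p = 1.34e-05), and MCAO replicate A alone lay within the sham range. At day 7 the MCAO libraries read 17.3, 21.9, 54.7, 10.1 and 18.8 CPM against 5.15, 7.93, 7.09 and 6.39 CPM in sham, which gave 1.86 on the log2 scale (SE 0.43, adjusted p = 0.00404). Without MCAO replicate C, the highest, the day 7 value was 1.338 (adjusted p = 0.0515). The call was lost in 4 of the 9 fits that left out 1 library. The others were those without sham A, B or D (adjusted p = 0.017, 0.0106 and 0.0223). Over the whole time course the mean log2 fold change was 1.84 (SE 0.20, adjusted p = 2.09e-09). These values rest on few reads, 5 to 171 counts per library.

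The spread of Hk2 among the day 3 MCAO libraries ran beside that of immune markers. Summed microglial markers were 661 CPM in replicate A and 1322, 2598, 1679 and 2327 CPM in B, C, D and E, against 287 to 393 CPM in the shams. Summed peripheral myeloid markers were 3.74 CPM in replicate A and 35.6 to 259 CPM in the others. Replicate A was thus the lowest of the 5 in Hk2 and in both marker sums, and the 2 libraries with most Hk2, C and E, were also the 2 with most microglial markers. At day 7, replicate C had the most Hk2 and also the most microglial (3564 CPM) and fibroblast markers (5453 CPM, others 153 to 480 CPM). The part of these cells in the rise of Hk2 was not tested. At 12 h granulocyte markers moved with MCAO, with 2 of 7 genes called higher and sums of 12.98, 34.9, 173, 177 and 1731 CPM in replicates A to E against 1.12 to 3.51 CPM in sham. Replicate E, with most Hk2 at 12 h, also had most granulocyte markers, and the part of these cells was not tested. Microglial sums at 12 h overlapped sham (274 to 648 against 287 to 524 CPM), and 1 of 8 microglial genes was called lower. At 3 h, where Hk2 lay above sham without being called, microglial sums overlapped (311 to 401 CPM after MCAO, 315 to 448 CPM in sham). Granulocyte sums (11.5 to 65.9 against 3.16 to 8.52 CPM) and erythroid sums did not overlap at that time. The part of any of these cells at 3 h was not tested either.

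Hk1, the constitutive isoform of neurons, had a positive log2 fold change up to 24 h and was called lower at day 7. At 3 h all 5 MCAO libraries (234.7 to 307 CPM) exceeded the 4 shams (197 to 234.4 CPM), though 0.32 on the log2 scale missed the threshold (adjusted p = 0.583). At 12 h it read 408, 291, 280, 324 and 309.7 CPM after MCAO and 253, 249, 167 and 194 CPM in sham, with no overlap, which gave 0.58 on the log2 scale (SE 0.16, adjusted p = 0.0468). At day 7 it read 186, 219.9, 202, 205 and 199 CPM after MCAO and 283, 330.4, 255 and 381 CPM in sham, again with no overlap, which gave -0.63 on the log2 scale (SE 0.16, adjusted p = 0.00716). Hk1 was the only 1 of the 41 genes whose MCAO-sham difference varied over the 5 times in edgeR's F test of 4 interaction contrasts (F = 9.04, adjusted p = 0.00476; 0.491% of all genes did at that threshold). The sham level of day 7 was also the highest of any group without occlusion, with a mean of 312 CPM, while the MCAO mean of day 7 (202 CPM) lay 0.26 below the control on the log2 scale of the fit, a difference that did not pass the test.

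**Figure D2:**
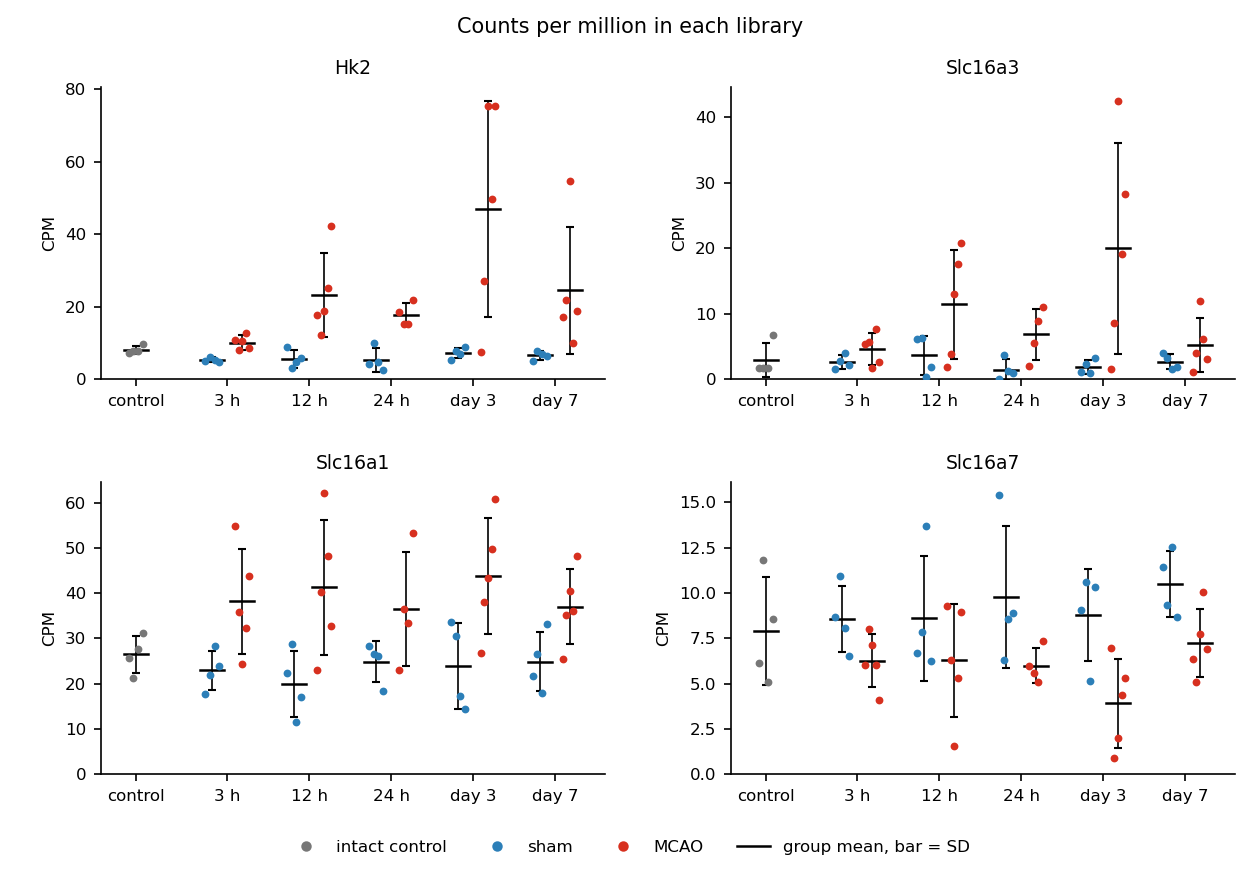
CPM of Hk2, Slc16a3, Slc16a1 and Slc16a7 (y axes, from 0) in each library by time after surgery (x axis); grey points are control, blue sham and red MCAO libraries, and black lines give the group mean with its SD. Hk2 in MCAO lies above sham at each time except for 1 library at day 3, and Slc16a7 runs lower after MCAO.

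All 3 monocarboxylate transporters were called over the average of the times, 2 higher and 1 lower. Slc16a3 encodes MCT4, the low-affinity carrier known for lactate export from glycolytic cells. It was scarcely present without occlusion (0.00 to 6.83 CPM, 0 to 12 counts) and at day 3 read 1.60, 8.59, 42.4, 19.0 and 28.2 CPM after MCAO against 1.09, 2.31, 0.93 and 3.28 CPM in sham. The log2 fold change was 3.38 (SE 0.72, adjusted p = 0.00111), with replicate A again in the sham range. The order of the 5 libraries in Slc16a3 at day 3 was that of their microglial sums, and at 12 h that of their granulocyte sums, both given above. Microglial sums at 12 h (549, 422, 274, 648 and 437 CPM in replicates A to E) did not follow that order. Neither did granulocyte sums at day 3 (6.41, 20.3, 641, 13.7 and 78.4 CPM). The part of these cells was not tested. At 12 h (1.85, 3.88, 13.04, 17.6 and 20.8 CPM after MCAO) and 24 h (2.12, 5.61, 8.90 and 11.01 CPM) single libraries were as high as 20.8 CPM, but the log2 fold changes of 1.674 and 2.15 did not pass the test (adjusted p = 0.223 and 0.392). Day 7 gave 0.98 (SE 0.74, adjusted p = 0.451).

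Slc16a1 encodes MCT1, the widely expressed carrier of endothelium and glia. It was higher after MCAO at each time by a log2 fold change of 0.54 to 1.06, never enough to be called at a single time, and its adjusted p was 0.0392 at 12 h and 0.0395 at day 3. At 12 h it read 23.0, 40.3, 62.1, 48.2 and 32.8 CPM after MCAO and 22.3, 28.7, 11.4 and 17.1 CPM in sham. At day 3 it read 26.7, 38.0, 43.4, 49.8 and 60.8 CPM against 33.7, 30.5, 17.3 and 14.5 CPM. MCAO replicate A lay within the sham range in both cases, and the call came from the average over the times (log2 fold change 0.75, SE 0.13, adjusted p = 1.70e-05). Endothelial markers were called higher in 2 of 8 genes at day 3, with sums of 286 to 649 CPM after MCAO and 295 to 325 CPM in sham, and in 0 of 8 at the other times. At 12 h 1 of the 8 was called lower, with sums of 223 to 329 CPM after MCAO and 270 to 365 CPM in sham. The part of endothelial cells in the rise of Slc16a1 was not tested.

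Slc16a7 encodes MCT2, the high-affinity carrier of neurons known for lactate uptake. It was lower after MCAO at all 5 times, by 0.44 to 1.17 on the log2 scale. At day 3 it read 6.94, 0.90, 2.00, 4.39 and 5.29 CPM after MCAO and 9.07, 10.6, 5.14 and 10.3 CPM in sham (log2 fold change -1.17, SE 0.38, adjusted p = 0.0439). Averaged over the times the log2 fold change was -0.66 (SE 0.17, adjusted p = 0.00378). Leaving out sham replicate C of 12 h (-0.59, adjusted p = 0.01003) or sham replicate A of 24 h (-0.60, adjusted p = 0.0101) lost that call. Its counts were low, 2 to 37 per library. The log2 ratio of Slc16a1 to Slc16a7, taken within each library on CPM + 1, was higher in MCAO than in sham by 1.06 to 2.00 in the mean of the 5 times, and the groups separated at day 3.

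**Figure D3:**
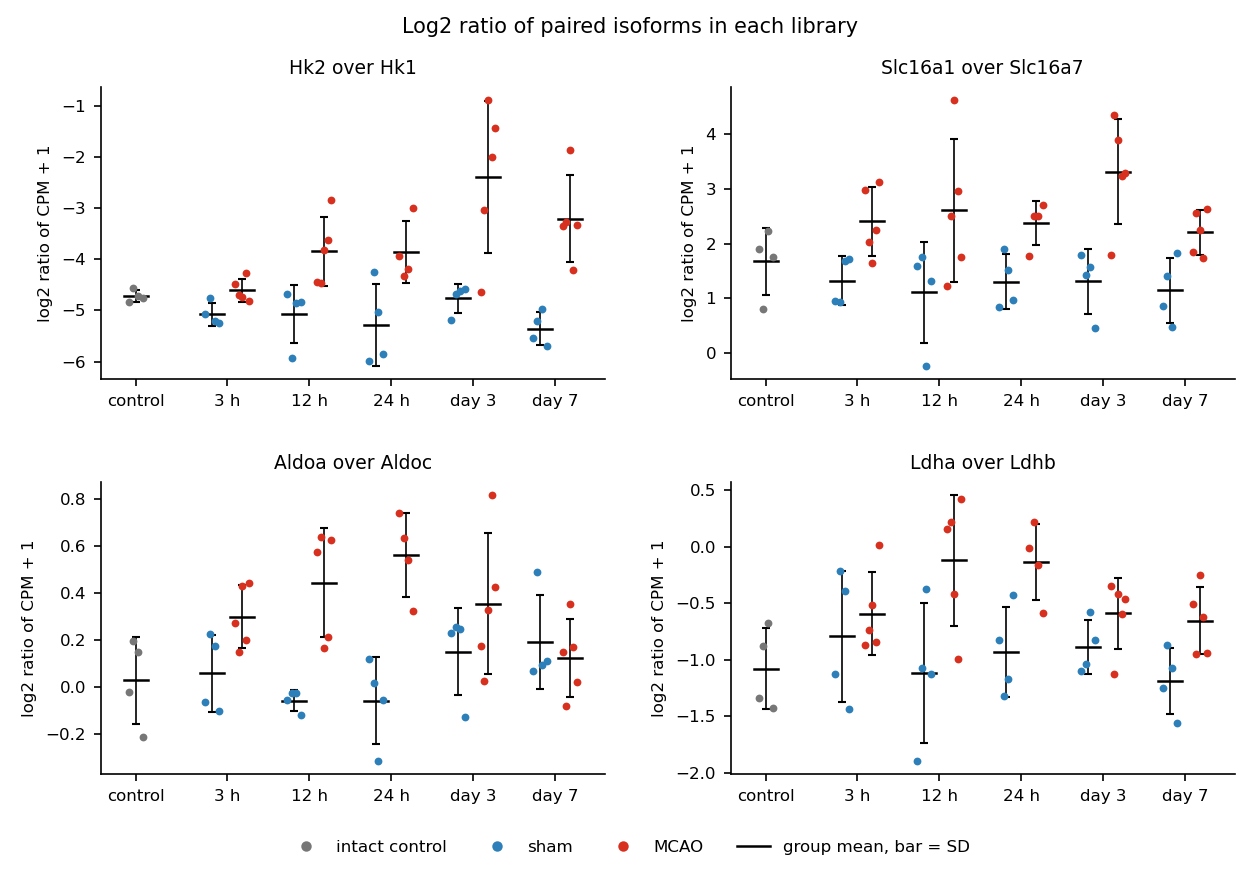
Log2 ratio of CPM + 1 between the named pairs (y axis) in each library by time after surgery (x axis); colours as for the plot of Hk2 CPM, black lines give the mean and SD. Hk2 over Hk1 and Slc16a1 over Slc16a7 have higher means in MCAO at all 5 times, and Aldoa over Aldoc separates from sham at 12 h and 24 h only.

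The ratio of paired isoforms within a library depends little on library size, and it is given here as a description without a test and only to compare libraries, not the abundance of the 2 genes. Hk2 over Hk1 was higher in MCAO at each time, by 0.47 at 3 h, 1.23 at 12 h, 1.42 at 24 h, 2.36 at day 3 and 2.15 at day 7 on the log2 scale, with separated groups at 12 h and day 7. Ldha over Ldhb was also higher at each time, by 0.20 to 0.99, though the groups overlapped at each. Aldoa over Aldoc ran from 0.17 to 0.64 in the MCAO libraries of 12 h and from -0.12 to -0.02 in their shams, and at 24 h from 0.32 to 0.74 against -0.31 to 0.12. At day 7 the means of this ratio differed by -0.07, with overlap. Of the 10 pairs compared, 4 had a higher mean in MCAO at all 5 times, the fourth being Pygb over Pygm.

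Glucose uptake is represented by Slc2a3, the neuronal glucose transporter GLUT3. At 3 h it read 223, 205, 136, 175 and 243 CPM after MCAO and 92.9, 175, 129 and 94.8 CPM in sham, a log2 fold change of 0.68 that missed the threshold (SE 0.21, adjusted p = 0.226). At the later times it differed from sham by -0.17 to 0.55 on the log2 scale, with no adjusted p under 0.05. The upper glycolytic enzymes Gpi1, Pfkl, Pfkm, Pfkp, Aldoa, Aldoc and Tpi1 gave 0 of 7 calls at every time. Their log2 fold changes against sham lay between -0.31 (Gpi1 at day 7) and 0.41 (Pfkl at 12 h).

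Aldoc, the aldolase isoform typical of astrocytes, was 0.10 to 0.28 lower after MCAO on the log2 scale at all 5 times. At 24 h all 4 MCAO libraries (932, 854, 876 and 969 CPM) lay below all 4 shams (1179, 1011, 1147 and 1086 CPM). The average over the times was -0.21 (SE 0.06, adjusted p = 0.00943), too small a change to be called. Summed astrocyte markers at 24 h ran from 3856 to 4536 CPM after MCAO and from 4219 to 4847 CPM in sham, overlapping, and 1 of the 9 astrocyte markers was called higher.

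Lower glycolysis carried 1 of the falls of day 7. Of its 6 genes at that time, 2 were higher and 4 lower, from -0.98 (Pgam1) to 1.13 (Gapdh) on the log2 scale. At 12 h Gapdh stood at -0.98, and its smallest adjusted p against sham at any time was 0.164. Eno2, the neuronal enolase, read 830, 755, 647, 809 and 643 CPM at day 7 after MCAO and 978, 1137, 1033 and 1514 CPM in sham. The groups did not overlap, and the log2 fold change was -0.66 (SE 0.16, adjusted p = 0.0044). At the 4 earlier times it differed from sham by -0.08 to 0.09, with adjusted p between 0.861 and 0.978. Against the intact control, at 829 to 843 CPM, the day 7 MCAO libraries gave a log2 fold change of -0.19, so the fall of day 7 was measured against a sham group that itself averaged 1166 CPM. Pkm, the pyruvate kinase of brain, stayed within -0.27 to 0.30 of sham, and none of its adjusted p was under 0.05. Pgam1, phosphoglycerate mutase, read 6.35, 11.7, 14.3, 12.96 and 15.7 CPM at day 7 after MCAO and 22.9, 20.1, 20.2 and 32.8 CPM in sham. The groups did not overlap, but -0.98 on the log2 scale missed the threshold (SE 0.36, adjusted p = 0.0753).

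Of the lactate dehydrogenase subunits, Ldhb was lower after MCAO and Ldha higher on average over the times. Ldhb, the subunit that favours conversion of lactate to pyruvate, read 184, 164, 195, 249.99 and 191 CPM at 12 h after MCAO and 329, 308, 274 and 257 CPM in sham, a log2 fold change of -0.57 with no overlap (SE 0.15, adjusted p = 0.0392). At day 7 it read 182, 259, 174, 199.6 and 240.5 CPM against 337, 292, 313 and 364 CPM, which gave -0.63 on the log2 scale (SE 0.15, adjusted p = 0.00497). Averaged over the times it was 0.32 lower (SE 0.07, adjusted p = 6.18e-04). Ldha, the subunit that favours lactate formation, was higher at 24 h in all 4 MCAO libraries (224, 202, 175 and 169 CPM) than in all 4 shams (142, 113, 113 and 155 CPM), a log2 fold change of 0.56 that missed the threshold (SE 0.18, adjusted p = 0.242). Its average was 0.24 (SE 0.08, adjusted p = 0.0313), and by day 7 it stood at -0.11. For Ldhb, 30.8% of the 85-base windows in the last 500 bases of the transcript also match the pseudogene Gm5514, and reads from such windows may not count as unique.

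**Figure D4:**
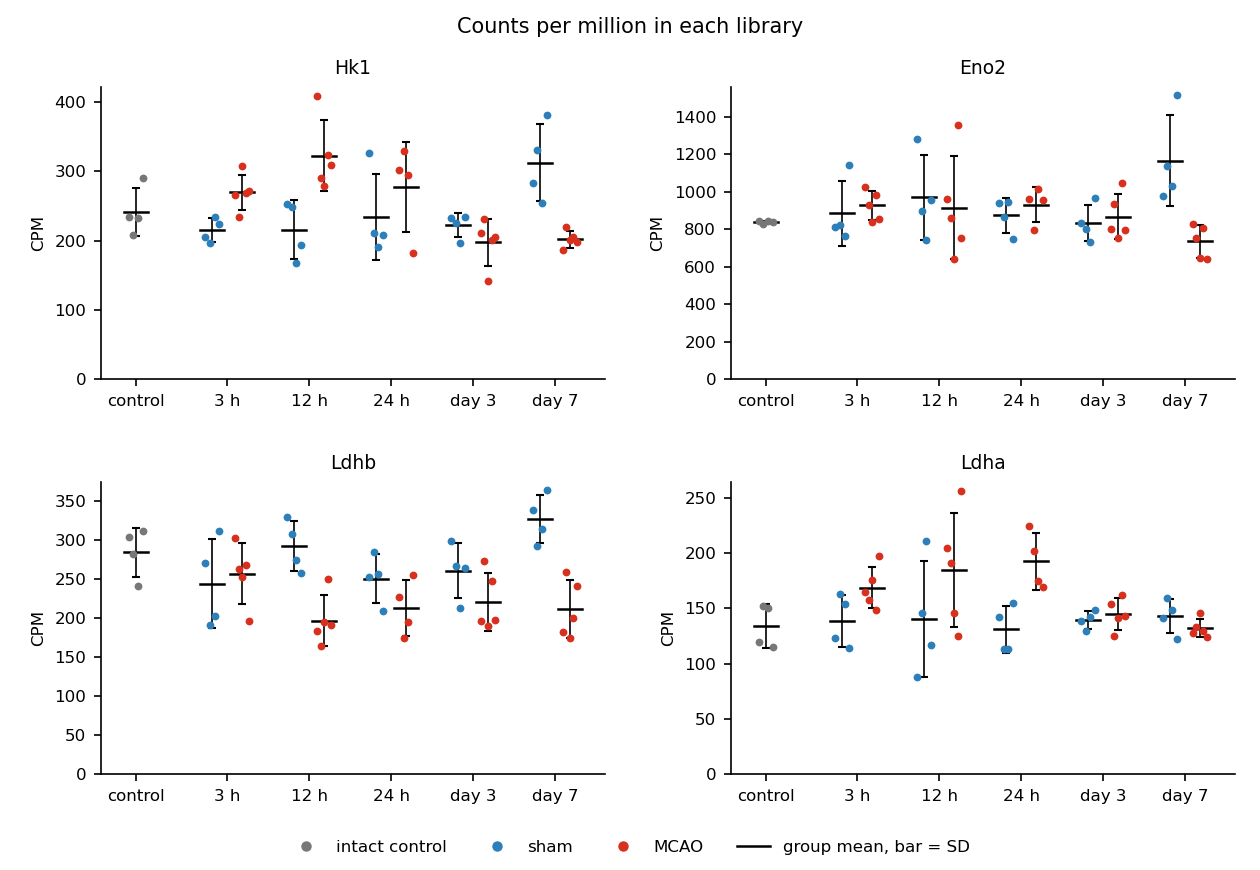
CPM of Hk1, Eno2, Ldhb and Ldha (y axes, from 0) in each library by time after surgery (x axis); colours and lines as for the plot of Hk2 CPM. At day 7 all MCAO libraries lie below all sham libraries for Hk1, Eno2 and Ldhb, and the day 7 sham means are the highest of the sham means for these 3 genes.

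Neuronal markers were also lower in sum at day 7. Summed over 11 genes they ran from 13428 to 20106 CPM in the MCAO libraries and from 25947 to 40797 CPM in the shams of day 7, without overlap, and 2 of the 11 were called lower with a median log2 fold change of -0.37. The control libraries ran from 23338 to 30656 CPM, between the 2 groups and overlapping the shams. The sum weighs Nrgn most, with 1221227 counts over the 48 libraries against 365037 for Camk2a, the next. At 24 h the median sum was also lower after MCAO (18961 against 30773 CPM), with overlapping groups. Gene by gene the list hardly moved at 24 h, with 0 of the 11 called lower and a median log2 fold change of -0.05. The log2 fold changes at that time were 0.09 for Eno2, 0.24 for Hk1 and -0.24 for Ldhb, none of them called. Sham replicate D of day 7 was highest in Eno2, Ldhb, Hk1 and the neuronal sum, and without it Eno2 gave -0.53 (adjusted p = 0.0603), Ldhb -0.59 (0.0293) and Hk1 -0.54 (0.0644), so that none of the 3 was called. With libraries scaled to the spike-in RNA in place of the gene counts they kept their direction, at -0.54, -0.53 and -0.51, and none was called. The part of neuronal content in these falls was not tested.

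Libraries without occlusion also differed among themselves in this pathway. In the 24 libraries without occlusion, the first principal component of 9737 genes outside the lists used here, centred within group, held 32.2% of the variance, and each library was scored on it. Of the 37 genes with a mean over 10 CPM in these libraries, 24 (64.9%) had a correlation past 0.6 in size with this score, 11 positive and 13 negative, against 27.7% of 9713 such genes. Gapdh (r = 0.95), Tpi1 (0.94), Cs (0.93) and Fh1 (0.86) rose along it, and Pdk2 (-0.88), Mdh2 (-0.88), Eno2 (-0.86) and Pygb (-0.84) fell. Hk1 (-0.65) and Ldhb (-0.59) fell too. Hk2 averaged under 10 CPM in these libraries, so its r is not read. The score had an r of -0.67 with the share of spike-in reads, 0.55 with that of ambiguous reads and 0.13 with gene counts. These values describe the 24 libraries and carry no p.

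The score differed between the groups of day 7. The shams averaged -0.83, with replicate D at -2.68, and the MCAO libraries 0.63. Gapdh, the glyceraldehyde phosphate dehydrogenase often used as a reference gene, went from 4.56 CPM in day 7 sham replicate D to 127 CPM in 12 h sham replicate C. With the score as a covariate, chosen after the data were seen, the day 7 log2 fold changes were -0.32 for Eno2 (adjusted p = 0.14), -0.43 for Ldhb (0.0773) and -0.41 for Hk1 (0.127), and none of them was called. Hk2 stayed called at 12 h, day 3 and day 7, and Slc16a3 at day 3. Ldhb at 12 h was called in that fit (-0.61, adjusted p = 0.00646). The part of this difference between libraries in the falls of day 7 was not tested further.

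**Figure D5:**
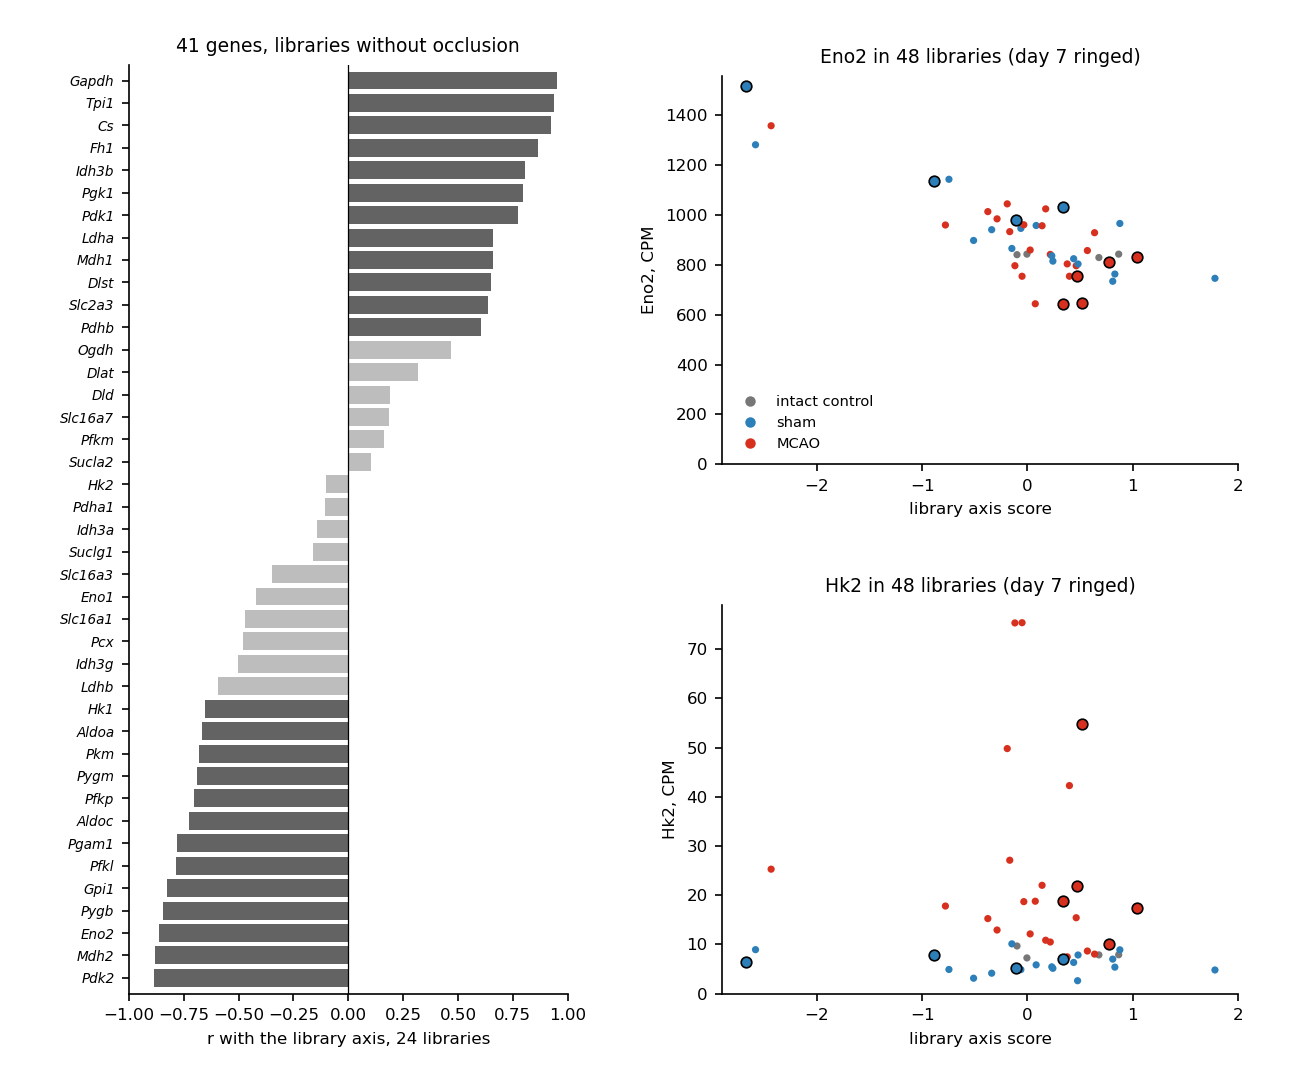
Left, correlation (x axis) of each of the 41 genes with the library score over the 24 libraries without occlusion, dark where it passes 0.6 in size (Hk2, Pgk1, Slc16a3 and Slc16a7, under 10 CPM on average in these libraries, are drawn but not counted in the text). Right, CPM of Eno2 and Hk2 (y axes, from 0) against the score (x axis) in all 48 libraries, with day 7 libraries ringed: Eno2 falls along the score from 1514 CPM at -2.68.

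Pyruvate entry and the TCA cycle showed no called gene at any time. The 7 genes of pyruvate entry were the pyruvate dehydrogenase subunits Pdha1, Pdhb, Dlat and Dld, the inhibitory kinases Pdk1 and Pdk2, and pyruvate carboxylase Pcx. Pdk1, which blocks pyruvate dehydrogenase, reached an adjusted p of 0.0349 at day 7 (54.2, 66.7, 43.4, 66.2 and 34.4 CPM after MCAO, 26.9, 30.3, 46.9 and 25.5 CPM in sham, log2 fold change 0.72, SE 0.23), and the groups overlapped. Pdk1 also rose along the library score (r = 0.77). The 4 dehydrogenase subunits stayed between -0.19 and 0.42 of sham on the log2 scale.

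Of the 11 TCA cycle genes, 0 were called and 0 passed an adjusted p of 0.05 at any time against sham. Their median log2 fold change was 0.02, -0.09, 0.07, -0.17 and -0.17 at the 5 times. Averaged over the times, Idh3a, a subunit of isocitrate dehydrogenase, was 0.20 lower (SE 0.06, adjusted p = 0.0173), and Ogdh, of the oxoglutarate dehydrogenase complex, was 0.20 lower (SE 0.07, adjusted p = 0.0409). At 24 h Idh3a was below every sham in all 4 MCAO libraries. Cs, citrate synthase, read 107, 117, 108, 137 and 64.5 CPM at day 7 after MCAO and 69.8, 63.9, 101 and 25.1 CPM in sham (log2 fold change 0.72, adjusted p = 0.0767). Mdh2, mitochondrial malate dehydrogenase, read 407, 417, 446, 440.4 and 489 CPM against 510.2, 524, 481 and 789 CPM (-0.39, adjusted p = 0.102). Neither passed the test, and both pairs of groups overlapped by 1 or more libraries. Mdh1, the cytosolic malate dehydrogenase, read 417, 344, 229, 387 and 236 CPM at day 3 after MCAO and 447, 457, 386 and 479 CPM in sham (-0.46, SE 0.17, adjusted p = 0.0993).

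Glycogen phosphorylase releases glucose from glycogen. Pygm, the muscle and astrocyte isoform, was lower in the mean at all 5 times, and its average log2 fold change was -0.44 (SE 0.15, adjusted p = 0.042). Pygb, the brain isoform, differed from sham by -0.19 to 0.36, and neither was called at any time.

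Set against intact cortex, whose 4 libraries all 5 MCAO comparisons share, 0 of 41 genes were called at 3 h (0.13% of all genes), 0 at 12 h (0.851% of all genes), 0 at 24 h (0.275% of all genes), 2 at day 3 (3.09% of all genes) and 0 at day 7 (1.5% of all genes). The same edgeR fit gave 2, 14, 6 and 3 of them at an unadjusted p under 0.05 at the 4 times with no call. No share of all genes stands beside these unadjusted counts, so they are not read as a result. DESeq2 called none at 3 h, 12 h and 24 h and Hk2 at day 7. The 2 genes of day 3 were Hk2 (log2 fold change 2.52) and Slc16a3 (2.73). Sham surgery itself gave 0 of 41 calls when the mean of the 5 sham groups was set against control (0.02% of all genes; 0 of 41 at an unadjusted p under 0.05, and 0 by DESeq2), and the 41 estimates lay between -0.44 and 0.27. Across the 5 sham times 0 of 41 varied at an adjusted p under 0.01 (0.0851% of all genes; 3 of 41 at an unadjusted p under 0.05).

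Other genes of these pathways were counted from a second list of 77, of which 68 were tested. Against sham, 2 of the 68 were called, both higher at day 3, where 4.02% of all genes were called, so the count is not a result about the list. They were Taldo1, transaldolase of the pentose phosphate pathway (log2 fold change 0.71, SE 0.15, adjusted p = 0.00149), and Pgls, phosphogluconolactonase of the same pathway (0.92, SE 0.23, adjusted p = 0.00562). Pgls read 41.1, 62.4, 74.9, 55.2 and 79.3 CPM after MCAO and 39.5, 29.1, 30.8 and 32.8 CPM in sham, without overlap. Taldo1 read 92.4, 114, 164, 163 and 167 CPM against 95.01, 87.7, 74.7 and 84.8 CPM, with MCAO replicate A in the sham range. Pgd (0.92), Pygl and Hk3 were among those higher at day 3 at an adjusted p under 0.05.

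Pygl, the liver and leukocyte glycogen phosphorylase, gave 1.62 at day 3 and 1.94 at day 7 against sham (adjusted p = 0.0409 and 0.0213), and was called over the average of the times (1.36, adjusted p = 1.16e-04). Hk3, a hexokinase of myeloid cells, was at or near 0 CPM in sham at day 3 and at 0.00, 0.45, 6.49, 0.98 and 6.17 CPM after MCAO, and was called over the average (adjusted p = 0.00124). As for Hk2, the libraries with most Hk3 at day 3 were C and E, those with most microglial markers. At the other times, second-list genes with an adjusted p under 0.05 against sham included Me2 at 12 h (-1.37), and Hkdc1 (-1.97), Phkg2 (-0.66) and Idh1 (1.12) at day 7.

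The depth and mapping of some members limit what could be seen. Gapdh was counted at 4.56 to 127 CPM without occlusion, and 81.7% of the 85-base windows in its last 500 bases also match 1 of 105 other genes, 100 of them annotated pseudogenes. For Eno1, 81.2% of windows match Eno1b or Gm4735. All windows of the Pfkp transcript overlap the annotated gene Pitrm1. The 95% interval of the MCAO-sham log2 fold change lay inside 0.58 in either direction for 24, 21, 20, 23 and 19 of the 41 genes at the 5 times. Of the others, Hk2 from 12 h on and Slc16a3 at day 3 had intervals wholly above 0.58.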

How the data were processed

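Polyadenylated RNA from 48 libraries in 11 groups was sequenced from the 3' end with spike-in RNA added. The authors aligned reads to GRCm38 with STAR 2.5.2b and counted them with HTSeq (submitters' processing notes), and deposited raw counts per gene for each library and a log2 matrix of normalized values made with DESeq. The strand setting of the counting was not given in the sources used here. Rows that name no gene were left out of library sizes (21.1 to 30.6% of each library's reads had no feature and 24.0 to 37.3% were not unique), as were the 92 spike-in rows (3.71 to 5.97%). No columns belonged to no sample.

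Genes with more than 10 counts in all (19970) entered 1 edgeR 4.0.16 quasi-likelihood fit over the 48 libraries with TMM scaling in R 4.3.3, and p-values were Benjamini-Hochberg adjusted over all of them. Groups came from the labels. Symbols were matched to 46488 of 46983 identifiers through GENCODE vM21. Principal components, ratios on log2(CPM + 1) and counts were made in Python 3.11.15 (numpy 2.4.6, pandas 2.3.3). Windows of 85 bases from the last 500 bases of each transcript were aligned with bwa 0.7.19, allowing 1 mismatch. Alternatives were DESeq2 1.42.0, limma 3.58.1 on the deposited log2 matrix, spike-in scaling, other filters, a replicate block and leaving out each library. The fit was tested on simulated data.

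The members and lists were chosen with earlier results of these data known. Library values and full statistics were given for genes called against sham at 1 or more times, filled up to 12 by smallest adjusted p; other members named were picked after their values were seen, as were second-list genes that were not called.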

Additional observations from a re-analysis of the deposited data

Results flagged for a closer look

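In 9 of 132 groups of the 12 genes given in full, 1 library lay far from the others by Dixon's test, which chance gives in about 1 group of 20. Hk2 in MCAO replicate C of day 7 stood at 54.7 CPM (others 10.1 to 21.9 CPM), the library with most microglial and fibroblast markers. Slc16a3 in control replicate D was 6.83 CPM (others 1.674 to 1.69 CPM). Hk1 in sham replicate A of 24 h was 327 CPM (others 191 to 211 CPM). Eno2 was 829 CPM in control replicate B (others 840.4 to 843 CPM) and 1143 CPM in sham replicate D of 3 h (others 763 to 824 CPM).

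Among the mitochondrial genes, Cs was 28.8 CPM in MCAO replicate D of 12 h (others 87.9 to 97.5 CPM), Mdh2 was 789 CPM in sham replicate D of day 7 (others 481 to 524 CPM), Mdh1 was 578 CPM in MCAO replicate A of 24 h (others 394 to 412 CPM), and Pdk1 was 60.6 CPM in sham replicate C of 12 h (others 32.4 to 36.0 CPM). The libraries apart in Cs, Mdh2 and Pdk1 had library scores of -2.44, -2.68 and 1.78. The difference between MCAO and sham changed over the 5 times for Hk1 (F = 9.04), higher after MCAO at 12 h and lower at day 7.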

How the results depend on the processing

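The counts of genes called were recomputed under other settings, and no called value changed sign. Of 1344 recomputed values of single genes, 57 changed sign with an unadjusted p of 0.05 or more in both fits, 53 lost and 1 gained a call. With an adjusted p under 0.05 and no fold limit, 4 of 41 genes passed at 12 h, 4 at day 3, 3 at 12 h and 1 at day 7 against control, and 10 in the average. Spike-in scaling gave 1 at day 7, 1 at 12 h against control and 0 varying over the times; spike-in scaling also moved the median of all genes by up to -0.30 (day 3 against control), and the share of higher calls over all genes from 81.8% to 64.3% at 3 h, 93.5% to 77.9% at day 3, 59.2% to 82.4% at day 7 and 90.9% to 50.3% at day 3 against control. limma on the deposited matrix gave 0 at 12 h, 2 at day 7 (Eno2 and Ldhb, not Hk2) and 1 at day 3 against control. In the average it gave 2, Hk2 and Slc16a3, while Slc16a1 (0.53) and Slc16a7 (-0.30) were not called. Fitting only the groups compared gave 0 at 12 h, 1 at day 3, 0 at day 7 and 0 at day 3 against control. DESeq2 and the fit with no filter each gave 1 at day 7 against control.

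Of settings chosen after seeing the data, the library score as a covariate gave 2 at 12 h, 1 at day 7, 2 at 12 h against control and 2 varying over the times. Without 7 libraries that stand apart (sham A and C and MCAO D and E of 12 h, sham B and D and MCAO C of day 7) there were 0 at 12 h, 0 at day 7 and 0 varying over the times, with Hk2 at 1.80 (adjusted p = 0.2045) and 1.46 (0.229). Slc16a7 was not called in the average of that fit (-0.66, adjusted p = 0.0156). The cause was not tested.

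Leaving out 1 library gave 0 to 1 at 12 h (0 without MCAO C, D or E or any sham), 2 at day 3, 0 to 4 at day 7 (0 without MCAO C or sham D, 1 without sham A or B, 2 without MCAO A, D or E), 1 to 2 at day 3 against control (1 without MCAO C, D or E or control A, B or C), 0 to 1 at day 7 against control (1 without MCAO D), 3 to 4 in the average, 0 to 1 varying over the times (0 without sham C or D of 12 h, MCAO A of day 7, or sham B or D of day 7), and 0 for the other counts.

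With the replicate letter as a block, 0 were called at 12 h (Hk2 adjusted p = 0.0173) and 1 at day 3 against control. Same-letter libraries correlated at -0.31 to 0.17. Of 4 letters, 0, 0, 2, 1 and 2 correlated best with their own at the 5 times. With 4 pairs per time this cannot show whether the letters pair the libraries.

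Depth limits the low genes: Slc16a3 (0 to 85 counts), Slc16a7 and Pgk1 were near the limit of detection.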
